A study of Homo sapiens with 9 samples.

Results

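Mitochondrial import and complex assembly factors are the proteins that bring nuclear-encoded precursors into mitochondria and that help the respiratory chain come together once they are there. They were taken as every gene on the array with a symbol that starts with TOMM, TIMM, CHCHD, NDUFAF, COA or COX1 followed by a digit. The platform annotation gave 55 such genes, with 1 or more probes each. A gene was measured if a probe was detected at p under 0.05 on at least 3 of 9 arrays, and the brightest such probe stood for it, which left 51 genes of 10307 measured in all. The other 4 were COX18, TIMM13, TIMM50 and TOMM20L, whose probes were detected on at most 2 arrays. All 51 measured genes were above background on all 9 arrays.

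The study asked how Ramos cells respond to a cholesterol-poor mimic of high-density lipoprotein (HDL). Ramos is an established Burkitt's lymphoma B cell line, so all arrays come from 1 line. HDL NPs are gold nanoparticles coated with apolipoprotein A-I and phospholipids, in which the gold occupies the core that carries cholesterol in native HDL. Cells received HDL NPs at 40 nM, human HDL at 40 nM or PBS for 48 h, with 3 biological replicates of each treatment, and total RNA was hybridised to Illumina HT-12 arrays.

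Mean bead intensity was 228 to 261 on the HDL NP arrays, 237 to 246 on the human HDL arrays and 229 to 278 on the PBS arrays, and 33.9 to 38.1% of probes were detected per array. Among B cell markers, MS4A1, CD79A, CD79B, CD22 and CD74 were detected on all 9 arrays and PAX5 was detected on 0. Of 7 T cell markers, CD247 was detected on all arrays, and of 6 myeloid markers none was. HDL NP replicate 1 stood apart: in a fit with estimated array weights its weight was 0.161, against 0.788 to 1.78 for the other 8 arrays. HDL NP fold changes that it moved are therefore given with and without it. RNA was measured in bulk, so fewer cells of a state and less RNA per cell cannot be told apart.

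Nearly all mitochondrial proteins are made in the cytosol. Precursors cross the outer membrane through the TOM complex, and the TIM23 complex takes those with a cleavable presequence through the inner membrane, drawn by a matrix motor. Metabolite carriers are passed by small TIM chaperones to the TIM22 complex, and small cysteine-rich proteins of the CHCHD type are trapped in the intermembrane space by the oxidoreductase CHCHD4. Dedicated assembly factors that are not part of the finished enzyme then help to build complex I (the NDUFAF proteins) and cytochrome c oxidase, complex IV (the COA and COX1x proteins), including its haem and copper centres.

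Several promoters of these genes carry motifs of factors linked to nuclear genes for mitochondria. The 4 printed all carry a motif and belong to genes with the patterns described next. No searched motif was found for COX14, CHCHD5, TIMM17B, NDUFAF3 or COA3, which are also described below as lower with HDL NPs. COX17, TOMM7 and TIMM10 had much lower values on 1 HDL NP array, and TIMM29 had lower values on all 3. Each is the RefSeq sequence (GRCh38.p14) from 250 bases before to 50 bases after the gene's start, in the direction of transcription, with matches to the searched motifs in capitals: GCGCATGC for NRF1 and CCGGAAGT for ETS factors such as GABPA, on either strand.
COX17 (chr3:119677357-119677656, minus strand; NRF1 matches that overlap on both strands, and 1 ETS match): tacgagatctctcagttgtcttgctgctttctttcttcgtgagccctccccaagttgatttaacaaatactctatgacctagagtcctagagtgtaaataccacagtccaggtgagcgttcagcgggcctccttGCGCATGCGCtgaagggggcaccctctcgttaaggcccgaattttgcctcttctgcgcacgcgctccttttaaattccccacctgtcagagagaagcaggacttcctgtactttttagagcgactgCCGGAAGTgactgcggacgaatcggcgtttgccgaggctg
TOMM7 (chr7:22822800-22823099, minus strand; NRF1): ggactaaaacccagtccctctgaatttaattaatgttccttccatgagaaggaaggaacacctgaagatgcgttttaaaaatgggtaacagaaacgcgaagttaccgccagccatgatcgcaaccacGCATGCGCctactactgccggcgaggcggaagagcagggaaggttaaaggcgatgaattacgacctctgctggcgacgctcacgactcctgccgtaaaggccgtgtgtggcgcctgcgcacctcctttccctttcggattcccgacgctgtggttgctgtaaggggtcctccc
TIMM10 (chr11:57530705-57531004, minus strand; ETS): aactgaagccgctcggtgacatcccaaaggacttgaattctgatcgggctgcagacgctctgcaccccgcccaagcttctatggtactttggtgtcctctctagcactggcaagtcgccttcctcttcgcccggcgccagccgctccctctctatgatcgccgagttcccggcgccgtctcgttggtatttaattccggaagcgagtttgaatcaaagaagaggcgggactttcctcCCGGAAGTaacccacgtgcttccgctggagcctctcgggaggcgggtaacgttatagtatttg
TIMM29 (chr19:10928561-10928860, plus strand; ETS): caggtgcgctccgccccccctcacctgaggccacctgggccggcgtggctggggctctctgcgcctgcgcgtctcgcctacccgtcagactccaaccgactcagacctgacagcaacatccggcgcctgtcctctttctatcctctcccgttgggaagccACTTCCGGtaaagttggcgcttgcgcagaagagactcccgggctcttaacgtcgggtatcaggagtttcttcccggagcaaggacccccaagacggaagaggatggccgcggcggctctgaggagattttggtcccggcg

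RefSeq promoters were matched for 46 of the 51 genes. The ETS motif was found in 13 of them (28.3%), against 4.14% of 35116 promoters in the table, and the NRF1 motif in 7 (15.2%), against 3.05%. A YY1 motif, AAGATGGC, was in 2 (4.35%), against 2.89%. Median GC content was 63.8% in the matched promoters and 58.7% over all promoters. The 35116 promoters were not limited to genes measured on these arrays. The shares therefore do not compare import and assembly genes with other measured genes. On HDL NP replicate 1, 14 of the matched genes lay at least 1 log2 unit below the PBS mean. The ETS motif was in 4 of these 14 and in 9 of the 32 others, the NRF1 motif in 2 and 5, and the YY1 motif in 0 and 2. Median GC content was 61.5% in the 14 and 64.8% in the 32. Whether the motifs bear on these values was not tested. A match is a string of letters and was not tested as a binding site.

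With HDL NPs, no import or assembly gene passed an adjusted p of 0.05 against PBS in either direction (limma, Benjamini-Hochberg over all 10307 genes), where 0.0388% of all genes passed as lower and 0.369% as higher. By a rule with the thresholds the study set for its arrays, more than 1.5-fold and p under 0.05, applied here to the p before adjustment, 4 of the 51 genes were lower, COX14, CHCHD5, NDUFAF3 and COA3, against 1.1% of all genes, and 0 were higher, against 1.43%. At an unadjusted p under 0.05 alone, 7 were lower (6.35% of all genes) and 2, COA8 and COX19, were higher (9.07%). The 7 were the same 4 with TIMM29, COA4 and COA7. The median log2 fold change over the 51 genes was -0.15, with 32 below 0. The median over all genes was 0.03, with 4533 of 10307 below 0. Without HDL NP replicate 1 these medians were -0.04 and -0.00. There 0 import or assembly genes met the fold rule, where 0.204% of all genes met it as lower and 0.854% as higher.

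Most of the low values came from 1 array. On HDL NP replicate 1, 15 of the 51 genes lay at least 1 log2 unit below their PBS mean, against 4.23% of all genes, and 3 lay at least 0.5 above it, against 13.8%. On HDL NP replicates 2 and 3, 0 of the 51 lay even 0.5 below, where 1.24% and 1.29% of all genes did. Of the 51 genes, 25 (49%) had their lowest value of the 9 arrays on HDL NP replicate 1 and 14 (27.5%) their highest, compared with 19.6% and 35.5% of all genes. The median SD of the 51 genes was 0.285 log2 units over the HDL NP arrays, 0.081 over the human HDL arrays and 0.096 over the PBS arrays. Over all genes the median SDs were 0.196, 0.115 and 0.126.

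**Figure D1:**
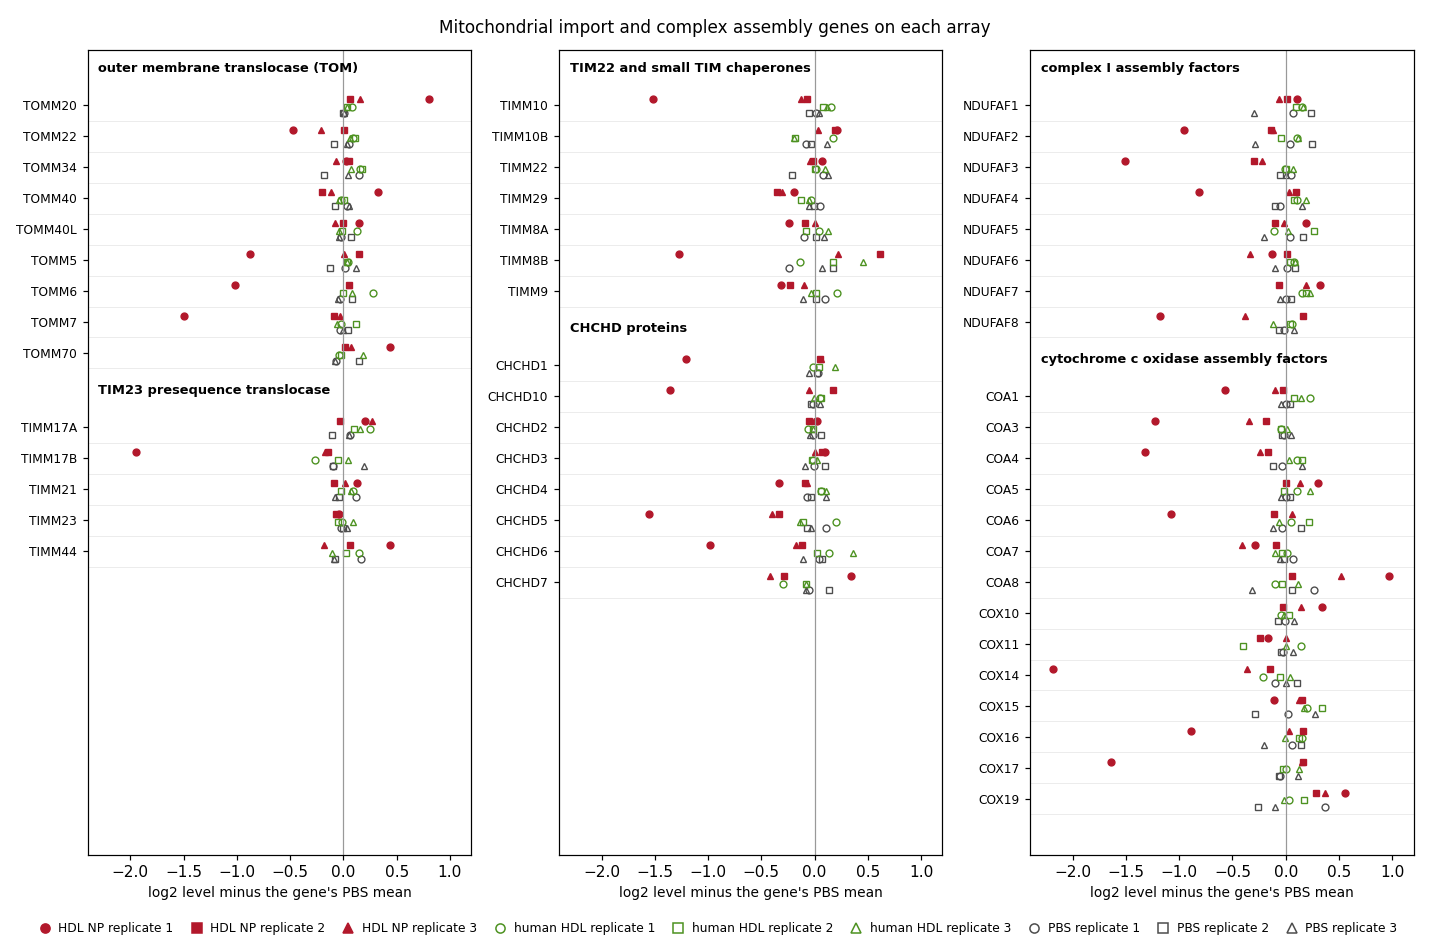
Log2 level minus the gene's PBS mean (x axis) for each of the 51 import and assembly genes (rows, by class) on each array; filled red symbols are HDL NP arrays, open green human HDL and open grey PBS, with a shape for each replicate. The filled circles of HDL NP replicate 1 reach -2.18, while HDL NP replicates 2 and 3 stay between -0.41 and 0.61.

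The 15 genes cut across the classes: 2 TOM subunits (TOMM6 and TOMM7), 1 gene of TIM23 (TIMM17B), 2 small TIM chaperones (TIMM8B and TIMM10), 3 CHCHD genes (CHCHD1, CHCHD5 and CHCHD10), 2 complex I assembly factors (NDUFAF3 and NDUFAF8) and 5 for cytochrome c oxidase (COA3, COA4, COA6, COX14 and COX17). On HDL NP replicate 1 their log2 levels minus the PBS mean ran between -2.18 and -1.02. On HDL NP replicates 2 and 3 their medians were -0.09 and -0.13, and 8 of the 15 (53.3%) were below the PBS mean on both, against 15 of the 36 other genes (41.7%) and 34.1% of all genes. The PBS mean is shared by these figures. All 15 were chosen here by their values on replicate 1, so only their values on the other arrays are separate measurements.

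The size of this shift depended on the processing. The count of 15 was 8 without background correction, 8 with the normexp correction, 7 with median scaling and 6 in the second deposited table. Over all 10307 genes the count on that array fell as well, from 436 to 255 without background correction. Counts over all genes under the other settings are not given here, so the drop is not particular to these 51 genes. Median scaling also placed all genes of HDL NP replicate 1 higher, with a median of 0.45 against 0.11 with quantile normalization. There the median of the 51 genes on that array was 0.21, against -0.24 with quantile normalization, so it lay below the median of all genes under both.

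Genes of the outer membrane translocase differed among themselves. TOMM7, a small subunit that modulates the stability of the complex, had log2 levels of 10.43, 11.84 and 11.90 on the HDL NP arrays, 11.91, 12.04 and 11.87 on the human HDL arrays and 11.89, 11.97 and 11.92 on the PBS arrays. Its second probe gave the same picture, at 1.70 below the PBS mean on HDL NP replicate 1 and 0.05 and 0.03 below on the other HDL NP arrays. TOMM5 and TOMM6, the other small subunits, had fold changes of -0.24 and -0.31 (log2), which were 0.08 and 0.05 without HDL NP replicate 1.

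TOMM20, the receptor that binds presequences, went the other way on that array. It stood at 11.40, 10.66 and 10.76 with HDL NPs, 10.68, 10.64 and 10.64 with human HDL and 10.61, 10.60 and 10.61 with PBS. Every HDL NP array was above every PBS array, which held for 1 of the 51 genes and for 11.7% of all genes, and the log2 fold change was 0.34 ± 0.17 (SE; adjusted p = 0.357), or 0.11 without replicate 1. A second TOMM20 probe gave 0.17.

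For the remaining TOMM genes the HDL NP and PBS values overlapped. TOMM40, the channel, had a log2 fold change of 0.00 with a 95% interval of -0.30 to 0.31, and of -0.16 without replicate 1. It lay 0.33 above the PBS mean on HDL NP replicate 1 and 0.21 and 0.11 below on replicates 2 and 3. TOMM70, the receptor for carrier precursors, had levels of 9.22, 8.79 and 8.86 with HDL NPs, against 8.71, 8.93 and 8.71 with PBS, a log2 fold change of 0.17, or 0.04 without replicate 1.

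In the TIM23 class, TIMM17B was set apart from its partners. TIMM17B and TIMM17A are alternative channel subunits that pair with TIMM23. TIMM17B levels were 6.82, 8.62 and 8.59 on the HDL NP arrays, 8.5, 8.72 and 8.80 on the human HDL arrays and 8.67, 8.67 and 8.95 on the PBS arrays. The HDL NP arrays were all below the PBS arrays, but only replicate 1 by a wide margin: the log2 fold change was -0.76 ± 0.36 (SE; adjusted p = 0.343) with it and -0.16 without it.

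TIMM17A differed by 0.15 and TIMM44, which tethers the import motor to the channel, by 0.10, both with overlapping values, and by 0.12 and -0.06 without replicate 1. The TIMM17A probe was dim, with a mean log2 level of 5.28 against 8.48 for TIMM17B. Its fold change may therefore be understated by the processing. TIMM23 itself stood at 11.28, 11.24 and 11.25 with HDL NPs and 11.29, 11.31 and 11.35 with PBS, a log2 fold change of -0.06 with an interval of -0.29 to 0.17. Its 3 other kept probes gave -0.14, -0.05 and -0.33. A near-identical copy, TIMM23B, means that the source of this signal is uncertain.

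TIMM29, a subunit of the TIM22 carrier translocase, had low values on all 3 HDL NP arrays, with replicate 1 the least low. Its levels were 7.41, 7.24 and 7.30 with HDL NPs, 7.57, 7.48 and 7.55 with human HDL and 7.65, 7.60 and 7.55 with PBS. Every HDL NP array was below every array of both other treatments. The log2 fold change against PBS was -0.28 ± 0.11 (SE; adjusted p = 0.260), and without replicate 1 it was -0.33 (adjusted p = 0.173). Over 20 alternative settings it ranged from -0.33 to -0.14, with adjusted p of 0.118 to 0.949.

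The small TIM chaperones TIMM10 and TIMM9, which act together as a ring, and their relative TIMM8B differed in pattern. TIMM10 had 8.18, 9.63 and 9.57 on the HDL NP arrays, 9.85, 9.78 and 9.81 on the human HDL arrays and 9.71, 9.65 and 9.74 on the PBS arrays, a log2 fold change of -0.57 (adjusted p = 0.363) that was -0.10 without replicate 1. TIMM8B had 5.56, 7.44 and 7.05 with HDL NPs, against 6.59, 7.0 and 6.90 with PBS. Its log2 fold change was -0.15 with replicate 1 and 0.42 without it, so the sign turned.

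Among the CHCHD genes, CHCHD5, a small cysteine-rich protein, had the lowest fold change and lay low on all 3 HDL NP arrays. CHCHD5 levels were 5.09, 6.32 and 6.25 with HDL NPs, 6.85, 6.54 and 6.52 with human HDL and 6.76, 6.58 and 6.61 with PBS. All HDL NP arrays were below all others. The log2 fold change was -0.76 ± 0.26 (SE; adjusted p = 0.225) and -0.36 without replicate 1.

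CHCHD6, a subunit of the MICOS complex that shapes cristae, had 5.74, 6.61 and 6.55 on the HDL NP arrays, against 6.76, 6.79 and 6.62 on the PBS arrays, a log2 fold change of -0.43 that was -0.15 without replicate 1. Its MICOS partner CHCHD3 differed by 0.06 with overlapping values, or by 0.04 without replicate 1. CHCHD10 and CHCHD1, the second of which belongs to the mitochondrial ribosome, had -0.41 and -0.37, and both were 0.06 without replicate 1. CHCHD2, the paralogue of CHCHD10, stood at 12.90, 12.82 and 12.87 with HDL NPs and 12.86, 12.93 and 12.83 with PBS, a difference of -0.01 with an interval of -0.24 to 0.22, or -0.03 without replicate 1.

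CHCHD7 showed the reverse arrangement. It lay 0.34 above the PBS mean on HDL NP replicate 1 and 0.29 and 0.41 below on replicates 2 and 3, so its log2 fold change of -0.12 was -0.35 without replicate 1 (adjusted p = 0.222). A second, dimmer CHCHD7 probe did not repeat it, at 0.19 with replicate 1 and 0.02 without. CHCHD4, the oxidoreductase that oxidises incoming cysteine-rich proteins, had 9.71, 9.96 and 9.98 with HDL NPs and 9.98, 10.02 and 10.15 with PBS, a log2 fold change of -0.17 (adjusted p = 0.508), or -0.08 without replicate 1.

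**Figure D2:**
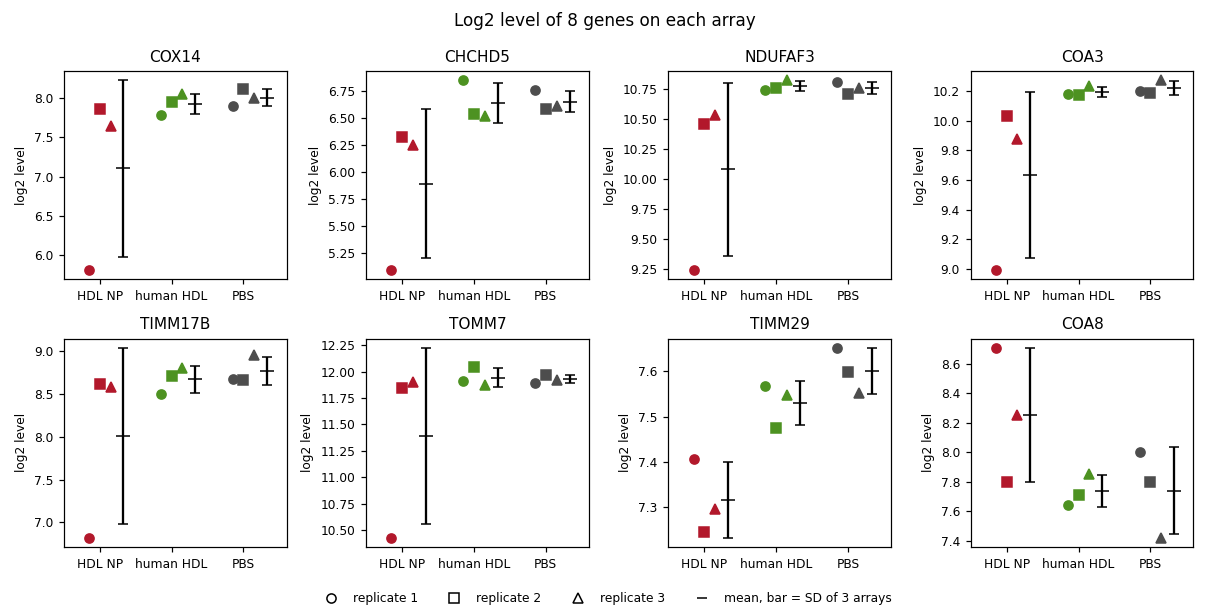
Log2 level (y axis, a separate scale in each panel) of 8 genes on the HDL NP, human HDL and PBS arrays, with a symbol for each replicate and, beside it, the mean and SD of 3 arrays. In COX14, CHCHD5, NDUFAF3, COA3, TIMM17B and TOMM7 the low HDL NP mean rests mostly on replicate 1, TIMM29 is low on all 3 HDL NP arrays, and COA8 overlaps PBS.

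For complex I, NDUFAF3 was the factor that met the fold rule. NDUFAF3, which acts early on the matrix arm together with NDUFAF4, had 9.24, 10.46 and 10.53 on the HDL NP arrays, 10.74, 10.76 and 10.82 on the human HDL arrays and 10.80, 10.70 and 10.76 on the PBS arrays. The log2 fold change was -0.68 ± 0.26 (SE; adjusted p = 0.265) and -0.26 without replicate 1. A dim second NDUFAF3 probe, with a mean log2 level of 4.49, gave 0.12.

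NDUFAF4 had a log2 fold change of -0.23 by 1 probe and -0.25 by another, both set by replicate 1, where they lay 0.82 and 0.85 below PBS, and were 0.06 and 0.05 without it. NDUFAF8, the partner of NDUFAF5, had 4.85, 6.20 and 5.66 with HDL NPs and 6.02, 5.97 and 6.11 with PBS, with overlap, a log2 fold change of -0.47 that was -0.11 without replicate 1. NDUFAF2, a late-acting factor, differed by -0.40, by -0.13 without replicate 1 and by 0.13 in the second deposited table. NDUFAF1, a factor for the membrane arm, differed by 0.02, with an interval of -0.28 to 0.32, and by -0.02 without replicate 1. NDUFAF7, a methyltransferase that modifies a complex I subunit, differed by 0.15, or by 0.06 without it.

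For cytochrome c oxidase, COX14 and COA3 met the fold rule. They act as a pair that binds newly made COX1, the mitochondrially encoded core subunit. COX14 had 5.82, 7.85 and 7.64 on the HDL NP arrays, 7.79, 7.94 and 8.04 on the human HDL arrays and 7.90, 8.10 and 8.0 on the PBS arrays. Its log2 fold change was -0.90 ± 0.39 (SE; adjusted p = 0.304), the lowest among the 51 genes, and -0.25 without replicate 1.

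COA3 had 8.99, 10.03 and 9.88 with HDL NPs, 10.18, 10.17 and 10.23 with human HDL and 10.20, 10.19 and 10.28 with PBS. Every HDL NP array was lower than every other. The log2 fold change was -0.59 ± 0.21 (SE; adjusted p = 0.243), a fold that only just passed the 1.5 of the rule, and -0.27 without replicate 1. COA4, at 6.02, 7.16 and 7.09 with HDL NPs and 7.30, 7.22 and 7.48 with PBS, just missed it with a fold of 1.49. Its log2 fold change was -0.58, and -0.21 without replicate 1.

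The copper and haem factors did not share a direction. COX17, the copper chaperone of the intermembrane space, had 9.22, 11.02 and 11.01 on the HDL NP arrays, against 10.81, 10.80 and 10.98 on the PBS arrays. Replicates 2 and 3 were thus above every PBS array and replicate 1 far below, and the log2 fold change was -0.44 with replicate 1 and 0.16 without. COX10 and COX15, which make haem O and haem A, differed by 0.15 (interval -0.11 to 0.42) and 0.05 (interval -0.27 to 0.38), although a second COX15 probe gave -0.24. Without replicate 1 they differed by 0.06 and 0.14.

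COA8 and COX19 had the most positive values. COA8, a factor that protects the enzyme from oxidative damage, had 8.71, 7.80 and 8.26 with HDL NPs, 7.64, 7.71 and 7.86 with human HDL and 8.0, 7.80 and 7.42 with PBS, and the groups overlapped. The log2 fold change was 0.51 ± 0.21 (SE; adjusted p = 0.286) and 0.29 without replicate 1. COX19, which works in copper delivery, had 7.17, 6.89 and 6.98 with HDL NPs, against 6.98, 6.35 and 6.51 with PBS, a log2 fold change of 0.40 (adjusted p = 0.277) and 0.32 without replicate 1.

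Counting genes by overlap alone, 11 of the 51 genes had every HDL NP array below every PBS array, where 8.5% of all genes did: TIMM17B, TIMM23, TIMM10, TIMM29, CHCHD5, CHCHD6, NDUFAF3, COA3, COA4, COA7 and COX14. An exact two-sided permutation test of 3 arrays against 3 cannot give a p below 0.1, so overlap was used as a description. COA7, a haem-binding factor, was similar to TIMM29 in that its value did not rest on replicate 1, at -0.26 with it (adjusted p = 0.317) and -0.25 without.

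Without HDL NP replicate 1, 0 of the 51 genes passed an adjusted p of 0.05 in either direction, where 0.0582% of all genes were lower and 0.446% higher. At an unadjusted p under 0.05, TIMM29, CHCHD5, CHCHD7, NDUFAF3 and COA3 were lower (5 of 51, against 6.24% of all genes) and TIMM8B was higher (1 of 51, against 7.74%). The fold changes of 16 of the 51 genes turned sign when that array was left out, and the largest to do so was that of COX17. The share of all genes that turned sign is not given here.

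**Figure D3:**
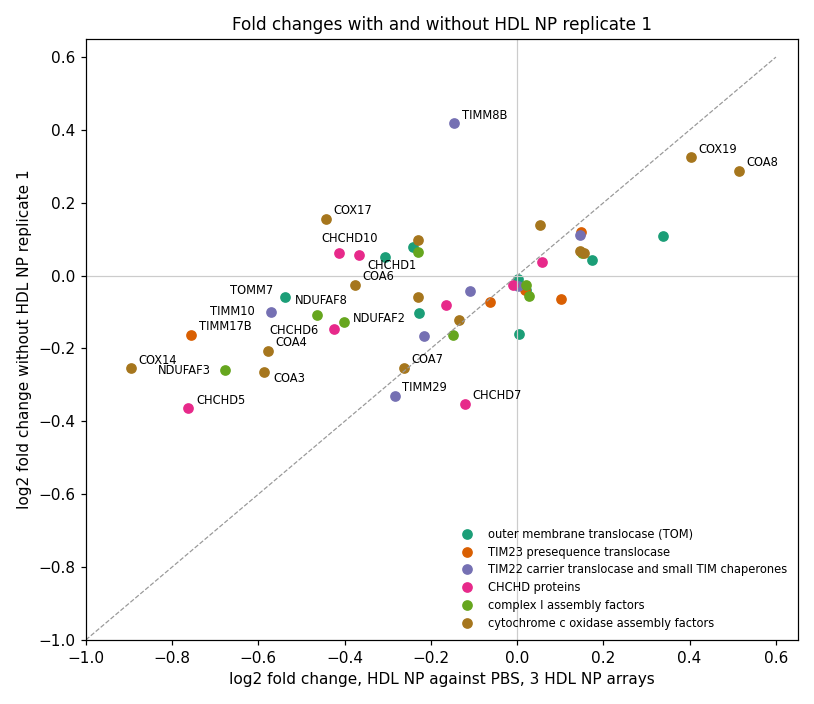
Log2 fold change of HDL NP against PBS with all 3 HDL NP arrays (x axis) and without HDL NP replicate 1 (y axis) for the 51 genes, coloured by class; the dashed line marks equal values. COX14 moves to -0.25 from a full value of -0.90, COX17 and TIMM8B end above 0, and TIMM29 and COA7 stay close to the line.

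Set against human HDL, the same HDL NP arrays were used, so the values that follow are not separate from those against PBS. Here 0 of the 51 genes passed an adjusted p of 0.05, against 0.0388% of all genes as lower and 0.553% as higher. The fold rule was met by 5 genes as lower, against 1.35% of all genes, and by 0 as higher, against 1.63%. These were CHCHD5 (-0.75), NDUFAF3 (-0.70), TIMM10 (-0.69), COA4 (-0.67) and CHCHD6 (-0.60), with adjusted p between 0.196 and 0.277. None of them met the rule without HDL NP replicate 1, where the values were -0.35, -0.28, -0.22, -0.30 and -0.32 in the same order.

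Separation of the arrays was seen for 15 of the 51 genes with HDL NP below human HDL (10.1% of all genes) and for 1, COX19, with HDL NP above (12.5%). The 15 included TIMM29, CHCHD4 and COX15, which stood at 7.22, 7.49 and 7.46 with HDL NPs and 7.54, 7.68 and 7.51 with human HDL. The median log2 fold change over the 51 genes was -0.22, with 39 below 0, and was -0.08 without HDL NP replicate 1. Over all genes it was 0.03, with 4638 of 10307 below 0.

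Human HDL against PBS gave small values throughout. No import or assembly gene passed an adjusted p of 0.05, and 0% of all genes did so in either direction; the 51 adjusted p-values all rounded to 1, and were 0.998 to 0.999 in a fit of these 2 groups alone. By the fold rule 0 were lower, against 0.0388% of all genes, and 0 were higher, against 0%. At an unadjusted p under 0.05 the counts were 0 lower, against 1.16%, and 0 higher, against 1.14%. All 51 log2 fold changes lay within 0.25 of 0, as did 93.7% of all genes.

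The extremes with human HDL were COX15 at 0.24 (interval -0.09 to 0.57) and NDUFAF7 at 0.19 (interval -0.08 to 0.46) at one end, and CHCHD7 at -0.15 and TIMM17B at -0.09 at the other. NDUFAF7 had 8.12, 8.16 and 8.20 with human HDL and 7.97, 8.01 and 7.92 with PBS. Its other kept probes lay on both sides of their PBS means with human HDL. By the mean of kept probes its log2 fold change was -0.01. By its brightest probe NDUFAF7 was one of 6 genes whose human HDL arrays were all above the PBS arrays (4.92% of all genes). The others were TOMM20, TOMM22, TIMM17A, TIMM10 and COA1, while 0 genes had all human HDL arrays below (4.26%). The median over the 51 genes was 0.04, with 36 above 0 and 15 below, and it turned to -0.04 with median scaling. Of all 10307 genes, 4973 were below 0. These intervals come from the fit of all treatments together, so their width includes the spread of the HDL NP arrays. For COX14 the interval was -0.92 to 0.76, where the lowest HDL NP array lay at -2.18 from the PBS mean. Its human HDL arrays lay between -0.21 and 0.04 from that mean and its PBS arrays between -0.10 and 0.10. The COX14 interval is therefore not a measure of the human HDL and PBS arrays alone.

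The genes that these factors serve were also read from lists of related genes. On HDL NP replicate 1 the median over 34 measured complex I subunits was -1.08 and over 10 complex IV subunits -1.30, with 17 and 8 of them at least 1 log2 unit below the PBS mean. The class medians of the import and assembly genes on that array were -0.66 for the CHCHD genes, -0.47 for complex I assembly and -0.43 for cytochrome c oxidase assembly. They were -0.24 for TIM22 and the small TIMs, 0.02 for the 9 genes with TOMM symbols and 0.13 for TIM23. The TOMM genes ran from -1.50 to 0.80 there, and their median was the value of TOMM34, so it does not describe the translocase subunits as a group. With median scaling the class medians for complex I assembly (0.04) and for TIM22 and the small TIMs (0.30) were above 0. In the second deposited table those for the TOMM genes (-0.21) and TIM23 (-0.00) were below it. Over 12 mitochondrial protease and chaperone genes the median on that array was 0.37, over 9 housekeeping genes 0.35, and over all genes 0.11. The part of array quality in these values was not tested.

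Against PBS over all 3 HDL NP arrays, 0 of these related genes passed an adjusted p of 0.05. The fold rule was met as lower by 5 of 34 complex I subunits, with a list median of -0.40, and by 1 of 10 complex IV subunits, with a median of -0.41, where 1.1% of all genes met it. Without HDL NP replicate 1 these medians were -0.07 and -0.02. Other import factors outside the symbol rule had a median of -0.07 over 24 genes (-0.08 without replicate 1), of which PAM16, part of the import motor (-0.84), and DNLZ, a chaperone of mitochondrial Hsp70 (-0.90), met the fold rule as lower. Other assembly factors had a median of -0.19 over 26 genes (-0.16 without replicate 1), of which UQCC2 (-0.72) and UQCC3 (-0.69), both for complex III, met it. All 4 were far lower on replicate 1 than on the other arrays, DNLZ at -2.17 from the PBS mean there and at -0.21 and -0.33 on replicates 2 and 3.

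**Figure D4:**
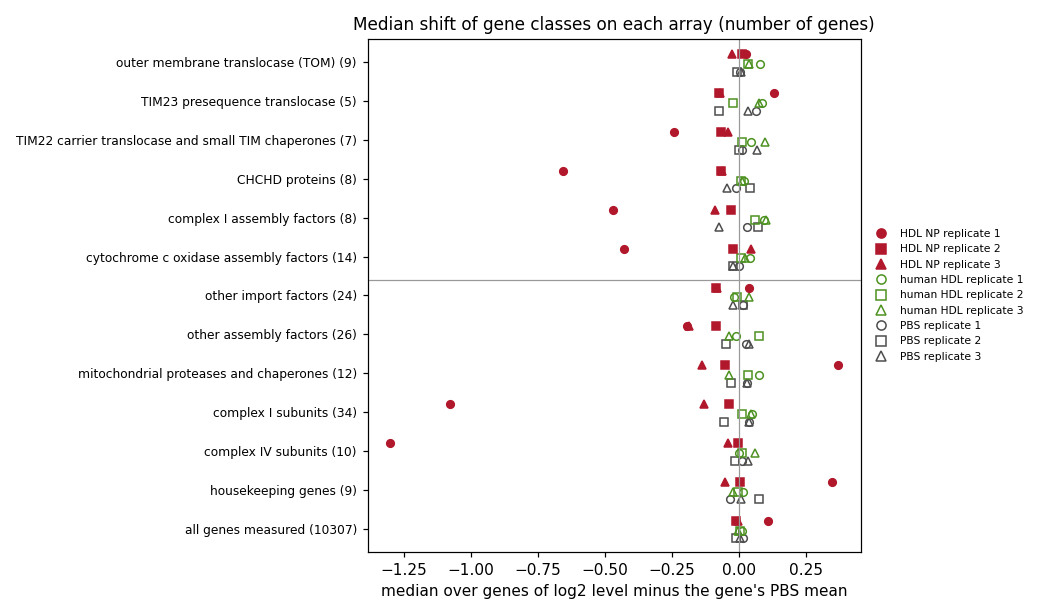
Median over genes of log2 level minus the gene's PBS mean (x axis) on each array for the 6 classes of import and assembly genes (above the line) and for related lists and all genes (below it), with the number of genes in brackets. HDL NP replicate 1 is lowest for complex IV (-1.30) and complex I subunits (-1.08), and the other 8 arrays stay near 0.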

How the data were processed

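The authors deposited a table of 47323 probes on 9 arrays that gives the mean intensity of the beads and a p-value for detection, with no background subtraction or normalization between arrays; scanner software and its settings are not given in the sources used here. The deposited detection p-values moved in steps of 1 in 770, the rank among negative control probes. A second deposited table holds signal values whose scale and normalization are not stated, and it was used only as an alternative.

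Intensities were background corrected with control levels inferred from the detection p-values, given an offset of 16, quantile normalized and put on the log2 scale (neqc, limma 3.58.1, R 4.3.3). This offset pulls dim probes toward each other and so understates their fold changes. Probes with 1 gene symbol detected at p under 0.05 on at least 3 arrays were kept, and 10307 genes were fitted in limma over all 9 arrays, with Benjamini-Hochberg adjustment over all of them. The methods give the fold change over 1.5 and p under 0.05 used as a second rule. The number of arrays limits precision. Replicates are biological by the methods, and their numbers did not pair the arrays.

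Genes described were those past either rule in any comparison, the 6 most positive and 6 most negative against PBS with HDL NPs, the 2 of each with human HDL, and a set of anchor genes; others were named after their values were seen. The gene class, its lists and the motifs were chosen with earlier results of these data known. Alternatives changed the background correction, scaling, filter, probe choice, model and test, or left out each array. The fit was tested on simulated data in which each gene had the same spread in every treatment. The wider spread of the HDL NP arrays was not simulated, so that test does not cover it.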

Additional observations from a re-analysis of the deposited data

How the results depend on the processing

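No import or assembly gene passed an adjusted p of 0.05 in any of the 3 comparisons under any of 20 alternatives; the smallest adjusted p was that of COA8 without HDL NP replicate 2, 0.0682 against PBS and 0.0587 against human HDL. The number of genes lower by the fold rule, 4 for HDL NP against PBS and 5 for HDL NP against human HDL, was less stable. It was 1 and 1 without background correction, 2 and 2 with the normexp correction (offset 50), 0 and 0 with array weights, and 0 and 0 with Student's test. The study lists Student's test among its general statistics and names no test for its arrays, so these zeros are not the study's own array result. Median scaling gave 3 against human HDL. With single arrays left out it ran between 0 and 10 against PBS, the lowest without HDL NP replicate 1 and the highest when replicate 2 was dropped, with 9 for dropping replicate 3, 2 without PBS replicate 1 and 1 without PBS replicate 3. Against human HDL it ran between 0 and 14, with the same arrays left out at either end, and gave 13 without HDL NP replicate 3 and 3 without human HDL replicate 1 or 3. Genes higher by the fold rule, 0 in both, numbered 1 against PBS in the second deposited table and 0 to 2 with an array left out, and against human HDL 1 with median scaling, 3 in the second table and 0 to 1 with an array left out. With the replicate number as a block the lower counts were 5 and 7, and 0 genes passed the adjusted p. Same-numbered arrays correlated at -0.08 to 0.17, so the numbers were not taken as pairs. Against PBS without HDL NP replicate 1, 0.204% of all genes met the fold rule as lower and 0.854% as higher. The shares of all genes under the other alternatives are not given here. These counts therefore do not compare the 51 genes with all genes. The median log2 fold change against human HDL was -0.085 with median scaling and ran between -0.27 and -0.083 with an array left out. For human HDL against PBS it was -0.039 with median scaling, 0.089 in the second table and between 0.0165 and 0.057 with an array left out. Against PBS, 26 of 51 genes changed sign under at least 1 alternative, and the share over all genes is not given here. The cause of these shifts was not tested. Files give no slide, so a slide block was not run.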
